A study of Mus musculus with 9 samples.

Results

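The DEAD and DEAH box RNA helicases of a mouse melanoma line are described here across a knockdown of Decr2, which encodes a 2,4-dienoyl-CoA reductase of peroxisomes. Members were chosen by name: every gene of the deposited table whose symbol starts with Ddx or Dhx followed by a digit, without Ddx58, Dhx58 and Ddx60, whose products act in or near antiviral RNA sensing. This gave 47 of 10762 genes. By the known site of action of their proteins, 16 were placed in the nucleolar class, 10 in the splicing class, 8 in the cytoplasmic class, 10 among other nuclear proteins, 2 in mitochondria and 1 in the germline class. Members of the family that the table does not list were not analysed here. Members and classes were chosen with earlier results of these data known, so their counts beside all genes are a description.

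The libraries fall into 3 groups of stable B16.SIY lines, each with 3 RNA sequencing libraries: cells with Decr2 shRNA1, cells with Decr2 shRNA2, and cells with a control shRNA (SHC002). B16.SIY is a melanoma line from C57BL/6 mice, tagged with the SIY model antigen in fusion with dsRED. Every group, the controls included, had been infected with a lentivirus that carries a hairpin and selected with puromycin. The labels do not say whether a line is 1 clone or a mixed population, and the series title speaks of tumors where the sample labels describe cultured cells. Nor do they say that the 3 libraries of a group came from separate cultures, so a p-value reflects how libraries of a group varied, and that variation may be technical alone.

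DEAD and DEAH box proteins use ATP to unwind short RNA duplexes or to strip proteins from RNA, and many serve 1 step of RNA metabolism each. In the nucleolus they help the ribosomal RNA precursor to fold and be cut into the RNAs of both ribosomal subunits, and in the spliceosome they drive the changes of shape between its successive complexes. In the cytoplasm they act in messenger RNA (mRNA) export, translation initiation and decay.

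The family takes its name from motif II, the residues that bind magnesium and ATP. The coding sequence of that motif is shown for members the results below turn on, to make plain what the names DEAD and DEAH mean and how close the paralogs are. Each line gives 36 bases of the coding strand, 5′ to 3′, from GENCODE release M21 on GRCm38, with the 12 bases of the motif in capitals.
Ddx54: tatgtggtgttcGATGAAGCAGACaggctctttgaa
Ddx21: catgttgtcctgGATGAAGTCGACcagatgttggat
Ddx50: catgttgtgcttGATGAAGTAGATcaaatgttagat
Ddx46: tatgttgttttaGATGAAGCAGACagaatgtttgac
Ddx23: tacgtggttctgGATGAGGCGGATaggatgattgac
Dhx8: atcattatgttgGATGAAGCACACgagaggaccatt
Ddx19a: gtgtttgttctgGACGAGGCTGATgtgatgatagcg
Ddx19b: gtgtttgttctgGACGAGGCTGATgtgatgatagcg
Ddx39: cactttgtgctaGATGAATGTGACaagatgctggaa
Ddx39b: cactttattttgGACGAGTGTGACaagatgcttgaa
Ddx20: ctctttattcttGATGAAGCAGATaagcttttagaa
Ddx59: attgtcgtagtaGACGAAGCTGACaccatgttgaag
The capitals of Ddx54 lie on the plus strand at chr5:120619846-120619857, those of Ddx46 on the plus strand at chr13:55660758-55660769 and those of Ddx39 on the plus strand at chr8:83721110-83721121. Those of Ddx21 lie on the minus strand at chr10:62591881-62591892, those of Ddx23 on the minus strand at chr15:98648634-98648645 and those of Dhx8 on the plus strand at chr11:101752140-101752151. In Ddx59 an intron splits the motif. Ddx19a and Ddx19b, neighbours on chromosome 8, have the same 36 bases.

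Translated, motif II read DEAD in 25 of the 47 genes and DEAH in 9. The gene name does not always give the letters: Ddx11 carries DEAH, Ddx39 and Ddx39b carry DECD, Ddx21, Ddx28 and Ddx50 carry DEVD, and Ddx52 carries DESD. Among genes named Dhx, Dhx29, Dhx30, Dhx34 and Dhx57 carry DEVH, Dhx9 and Dhx36 carry DEIH, and Dhx32 carries DDVH. Of the 25 DEAD genes, 9 were lower and 1 was higher in the mean of both Decr2 hairpins than in the controls, and of the 9 DEAH genes 3 were lower, where 7.89% of all genes were lower and 9.69% higher. No difference between motifs was tested.

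Decr2 itself had log2 values of 2.87, 2.51 and 3.18 in the shRNA1 libraries and 0.84, 1.18 and 1.55 in the shRNA2 libraries, against 3.96, 4.10 and 3.71 in the control libraries. Values of a group are given throughout in the order of the replicates 0, 1 and 2. The fitted level was 47.6% of control with shRNA1 and 15.0% with shRNA2 (adjusted p = 0.0195 and 0.000568, limma). The melanocyte markers were listed in 8 of 8 cases, and of 25 markers of leukocytes, macrophages, endothelium, fibroblasts, epithelium and erythroid cells 3 were listed (Col1a1, Pdgfrb and Plvap), none of them called with either hairpin. Raised to the power of 2, the values of a library summed to between 969465 and 997650 in the 6 hairpin libraries, against 1014944 to 1045849 in the 3 control libraries. The part of that shift in the results was not tested. Centring each library on its median, which differed little between libraries, added 2 helicase calls in the mean of both hairpins, Ddx52 and Dhx15, and lost none. Read depth is unknown, because the files give no counts. In these bulk libraries, fewer cells that express a gene and less RNA per cell cannot be told apart.

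Fold changes were fitted with limma on the deposited log2 values, all 9 libraries together, and a gene was called at a Benjamini-Hochberg adjusted p under 0.05 over all 10762 genes. In the mean of both Decr2 hairpins against control, 15 of the 47 helicase genes were lower and 1, Ddx59, was higher. This made 31.9% of the helicases lower, against 7.89% of all genes, and 9.69% of all genes were higher. The median log2 fold change was -0.19 for the helicases and -0.0006 for all genes, and 39 of 47 helicases had a negative value. The counts depended on which control libraries were kept. Without control replicate 0, 10 helicases were lower (5.71% of all genes). Without control replicate 1, 3 were lower (2.22% of all genes), and without control replicate 2 again 3 were lower (2.2% of all genes). Without control replicate 1 and without control replicate 2 alike, the 3 were Ddx23, Ddx39 and Ddx20.

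With shRNA1 alone 8 helicases were lower and 1 was higher, where 5.49% and 6.92% of all genes were. With shRNA2 alone 12 were lower and 1 was higher, where 5.67% and 7.27% of all genes were. Ddx23, Ddx39, Ddx19a, Ddx46, Ddx20 and Ddx54 were lower with both hairpins, and Ddx59 was higher with both, against 3.01% of all genes lower and 4.54% higher with both. Both comparisons use the same control libraries, so a call with both is not independent evidence. All 6 hairpin libraries lay below all 3 controls for 21 of the 47 helicases, against 10.9% of all genes. They lay above all 3 controls for 1 helicase, Ddx59, against 12% of all genes.

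**Figure D1:**
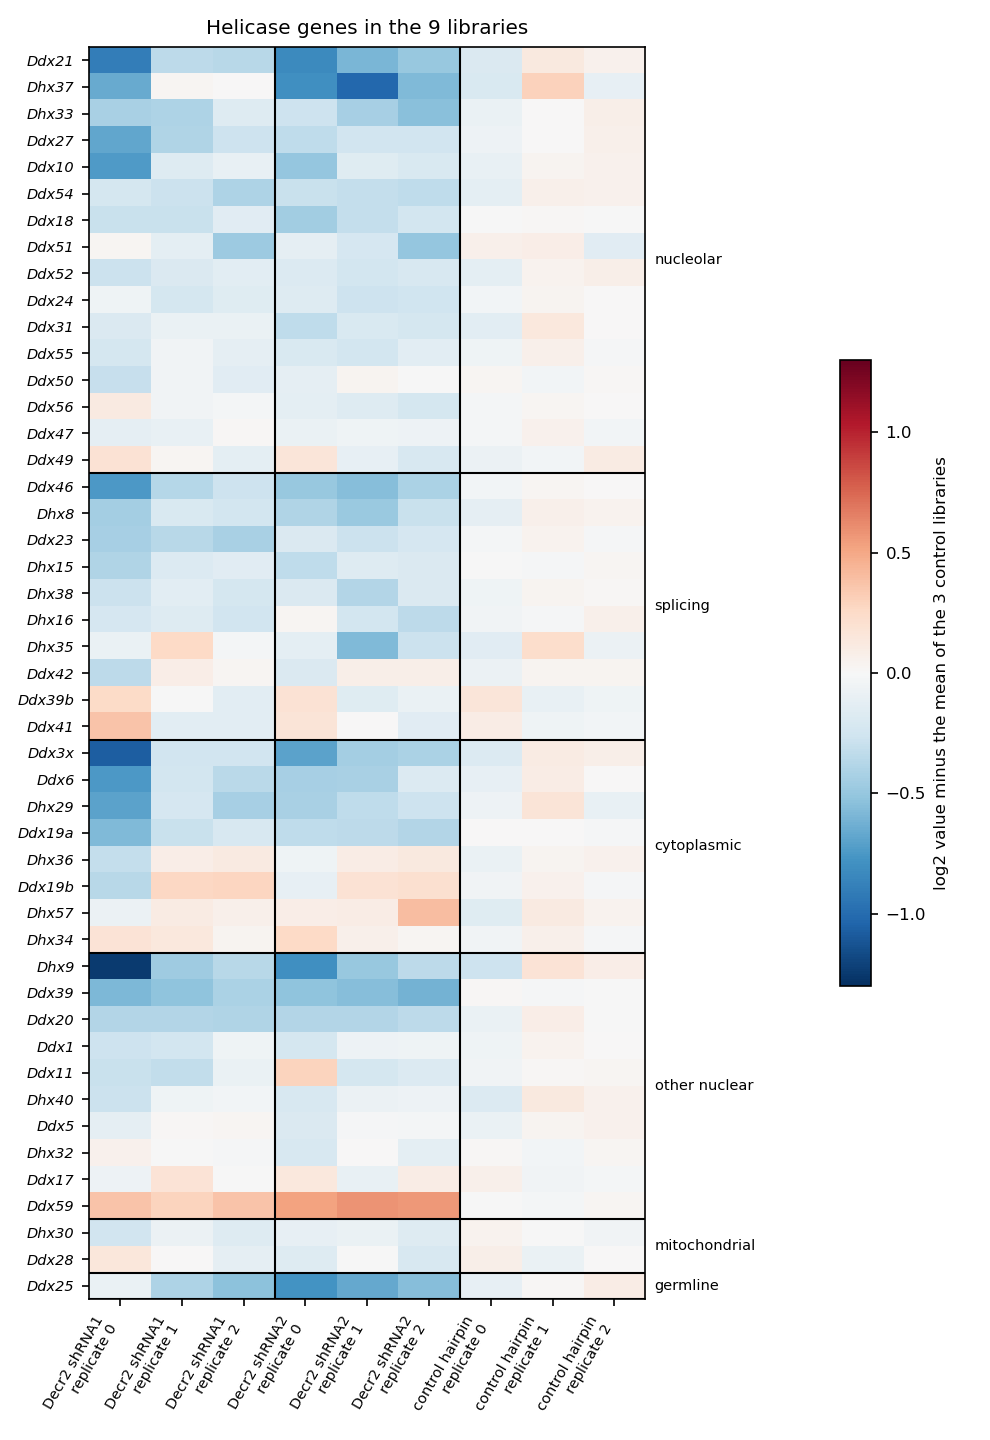
Each row is 1 helicase gene and each column 1 library. Colour shows the deposited log2 value minus the mean of the 3 control libraries, blue for lower and red for higher, with genes grouped by class. Blue runs through many rows of the 6 hairpin libraries and is darkest in replicate 0 of shRNA1, and Ddx59 is the row in which all 6 hairpin libraries are above every control library.

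Libraries of the same replicate number deviated together from their group means, but only those numbered 0 were clearly set apart by their number. Across genes, the deviations of replicate 1 of shRNA1 had a correlation of 0.126 with replicate 1 of shRNA2. With replicate 2 of shRNA2 it was 0.531. Taking the number as a block in the same fit gave 23 helicases lower in the mean of both hairpins, and Ddx59 again higher. Of all genes 14.1% were lower and 16.2% higher. With shRNA1 the block gave 17 lower (11.2% of all genes) and with shRNA2 20 lower (10.6% of all genes). With both hairpins it gave 16 lower (6.24% of all genes). No call was lost. The genes added in the mean of both hairpins were Ddx3x, Dhx9, Dhx15, Ddx10, Dhx37, Ddx24, Ddx51 and Ddx52. With shRNA1 they were Ddx3x, Dhx9, Dhx15, Ddx10, Ddx18, Ddx21, Ddx6, Dhx8 and Dhx33, and with shRNA2 they were Ddx3x, Dhx9, Dhx15, Ddx51, Ddx27, Ddx6, Ddx24 and Dhx29.

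For 22 of the 47 helicases (46.8%) the library numbered 0 was below the mean of the other libraries of its group in all 3 groups, which was so for 2811 of 10762 genes (26.1%). The median log2 difference of replicate 0 from the other libraries of its group was -0.13 over the helicases with shRNA1, -0.02 with shRNA2 and -0.08 with the control hairpin. Over all genes these medians were 0.01, 0.003 and 8.6e-05. With shRNA2 28 of 47 helicases were lower in replicate 0, against 5326 of 10762 genes. The 10 splicing members had a median difference of 0.08 there, with 4 of them lower. Leaving out these 3 libraries gave 25 helicases lower and 2 higher (Ddx59 and Ddx19b) in the mean of both hairpins. Of all genes 20.5% were lower and 20.9% higher in that setting. The labels do not say how replicate 0 differed from the others, and this was not tested.

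Among the nucleolar helicases 5 of 16 were called lower, none was called higher and 16 of 16 had a negative log2 fold change. Across all genes 7.89% were called lower and 9.69% higher, and 5388 of 10762 had a negative value. The median nucleolar log2 fold change was -0.22 in the mean of both hairpins. With the replicate block 10 of 16 were lower, where 14.1% of all genes were. Without either control replicate 1 or control replicate 2 none of the 16 was called, where 2.22% and 2.2% of all genes were lower.

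Ddx54, a nucleolar helicase of large subunit assembly, was the nucleolar member called with both hairpins. Its log2 values were 6.00, 5.95 and 5.82 with shRNA1 and 5.94, 5.92 and 5.90 with shRNA2, against 6.10, 6.30 and 6.28 in the controls. All 6 hairpin libraries were below the lowest control, which was replicate 0. Each hairpin gave a log2 fold change of -0.31 ± 0.08 (SE) (adjusted p = 0.0381 with shRNA1 and 0.0361 with shRNA2, limma). The gene span of Ddx54, introns included, shares 258 bases with that of Cfap73 and 1307 bases with that of Gm43579, both on the opposite strand. The strand setting of the counting is not given in the sources used here.

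Ddx21, which acts in the transcription and early processing of ribosomal RNA, had the largest called decrease among the 47 genes in the mean of both hairpins. The gene had log2 values of 7.38, 7.94 and 7.92 with shRNA1 and 7.46, 7.68 and 7.79 with shRNA2, against 8.10, 8.41 and 8.34 in the controls. Replicate 0 was the lowest library in each group, and hairpin and control libraries did not overlap. Both hairpins together brought it to 66.6% of control (95% interval 53.6 to 82.7%, log2 fold change -0.59 ± 0.14 SE, adjusted p = 0.0206, limma).

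Dhx33, linked to RNA polymerase I transcription in human cells, had log2 values of 5.12, 5.14 and 5.38 with shRNA1 and 5.27, 5.11 and 5.003 with shRNA2, against 5.46, 5.55 and 5.62 in the controls. No hairpin library reached the control range. Ddx27, a factor of large subunit rRNA processing, had 5.76, 6.05 and 6.17 with shRNA1 and 6.11, 6.19 and 6.19 with shRNA2, against 6.37, 6.44 and 6.50 in the controls. Again the groups did not overlap, and replicate 0 of shRNA1 was the lowest library. Ddx18, the relative of yeast Has1, had 6.72, 6.72 and 6.87 with shRNA1 and 6.56, 6.70 and 6.78 with shRNA2, against 7.004, 7.03 and 7.002 in the controls. The controls lay close together and above every hairpin library. In the mean of both hairpins the log2 fold changes were -0.37 ± 0.09 for Dhx33, -0.36 ± 0.09 for Ddx27 and -0.29 ± 0.07 for Ddx18 (SE, adjusted p = 0.0209, 0.0245 and 0.0201, limma). The call of Ddx18 was lost without any 1 of the control libraries.

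Dhx37, the relative of yeast Dhr1 that acts in small subunit assembly, differed most between the Decr2 lines. Its log2 values were 4.78, 4.56 and 5.01 with shRNA2 and 4.93, 5.61 and 5.59 with shRNA1, against 5.38, 5.89 and 5.48 in the controls. The shRNA2 libraries were all below the controls, whereas the shRNA1 libraries overlapped them, with replicate 0 low and the other two inside the control range. Against control the log2 fold change was -0.80 ± 0.21 with shRNA2 and -0.21 ± 0.21 with shRNA1 (SE, adjusted p = 0.0368 and 0.55, limma), and -0.50 in their mean (adjusted p = 0.0833, or 0.035 with the replicate block). The direct comparison of shRNA2 with shRNA1 gave -0.59 (95% interval -1.06 to -0.13) and did not pass (adjusted p = 0.358, limma).

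Of the other 10 nucleolar members, Ddx10, Ddx24, Ddx51 and Ddx52 were not called in the mean of both hairpins but passed with the replicate block (adjusted p = 0.0264, 0.0413, 0.0437 and 0.0376, limma). Ddx52 also passed with median centring, and Ddx10, Ddx24 and Ddx52 also passed without the libraries numbered 0. Their log2 fold changes in the mean of both hairpins were -0.31 for Ddx10, -0.19 for Ddx24, -0.24 for Ddx51 and -0.20 for Ddx52. Ddx31, Ddx47, Ddx49, Ddx50, Ddx55 and Ddx56 were called in no comparison of all 9 libraries, with values between -0.19 and -0.01. In yeast the relatives of most of these genes are assembly factors of 1 or the other ribosomal subunit.

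**Figure D2:**
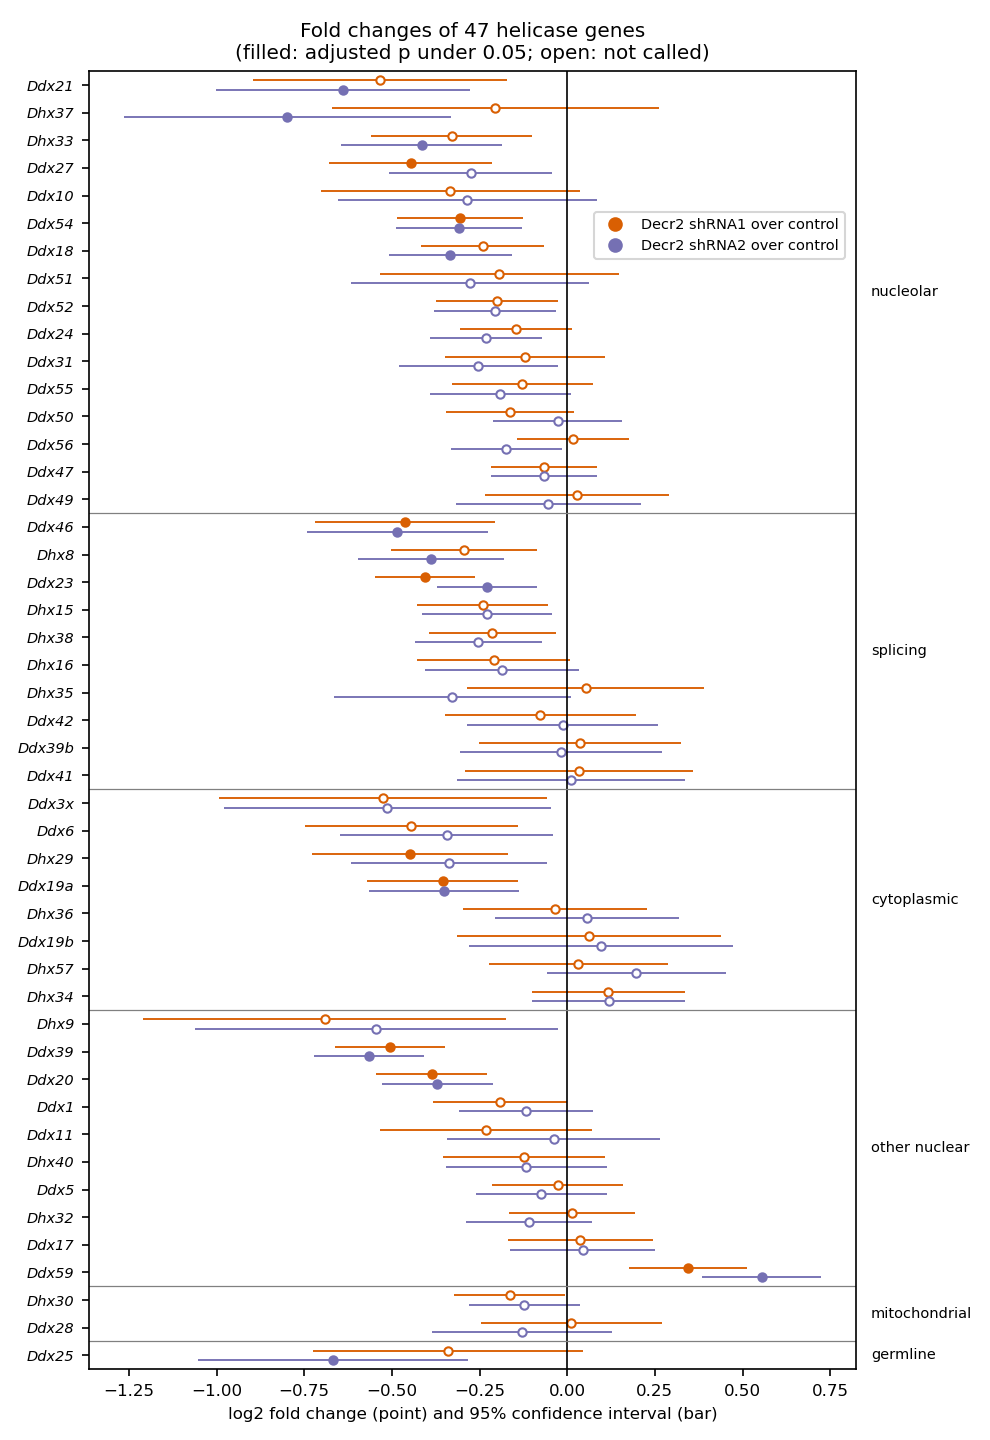
The horizontal axis is the log2 fold change of each Decr2 hairpin over control, with a bar for the 95% confidence interval, and each row is 1 of the 47 helicases, grouped by class. Filled points passed an adjusted p of 0.05. Points of both hairpins lie left of 0 for most genes, and Ddx59 is the gene with filled points on the right.

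Among the splicing helicases 4 of 10 were lower in the mean of both hairpins, none was higher and the median log2 fold change was -0.22. Of all genes 7.89% were lower and 9.69% higher. The members that moved act at different steps. With the replicate block 5 splicing members were lower, where 14.1% of all genes were. Without either control replicate 1 or control replicate 2 it was 1, Ddx23, where 2.22% and 2.2% of all genes were lower.

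Ddx46, the relative of yeast Prp5 that helps the U2 particle bind the branch site, had log2 values of 6.57, 6.94 and 7.04 with shRNA1 and 6.82, 6.76 and 6.90 with shRNA2, against 7.28, 7.33 and 7.32 in the controls. The controls were tight, and each hairpin library was below them. Its log2 fold change was -0.46 ± 0.11 with shRNA1 and -0.48 ± 0.11 with shRNA2 (SE, adjusted p = 0.032 and 0.0268, limma). Ddx23, the relative of yeast Prp28 that displaces the U1 particle from the intron start, had 6.91, 6.97 and 6.91 with shRNA1 and 7.15, 7.05 and 7.12 with shRNA2, against 7.31, 7.38 and 7.32 in the controls. The 3 groups did not overlap at all, with shRNA1 lowest. This made a log2 fold change of -0.41 ± 0.06 with shRNA1 and -0.23 ± 0.06 with shRNA2 (SE, adjusted p = 0.00636 and 0.0447, limma). The difference between the lines, shRNA2 minus shRNA1, was 0.18 (95% interval 0.03 to 0.32) and did not pass (adjusted p = 0.369, limma).

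Dhx8, the relative of yeast Prp22 that releases the spliced mRNA, had log2 values of 5.92, 6.16 and 6.12 with shRNA1 and 5.97, 5.88 and 6.07 with shRNA2, against 6.25, 6.43 and 6.41 in the controls. All 6 hairpin libraries were below the controls. Dhx38, the relative of yeast Prp16 that acts before the second step, had 5.57, 5.71 and 5.62 with shRNA1 and 5.66, 5.47 and 5.66 with shRNA2, against 5.80, 5.89 and 5.87 in the controls. The groups did not overlap, but the gap was small. In the mean of both hairpins the log2 fold change was -0.34 ± 0.08 for Dhx8 and -0.23 ± 0.07 for Dhx38 (SE, adjusted p = 0.0197 and 0.0466, limma). The call of Dhx38 held under 5 of 14 alternatives. It was lost with no intensity trend and without any 1 library other than replicate 0 of shRNA1.

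Dhx15, the relative of yeast Prp43 that takes the spliceosome apart and also serves ribosome assembly, lay just beyond the threshold. Its log2 values were 8.16, 8.37 and 8.41 with shRNA1 and 8.23, 8.39 and 8.36 with shRNA2, against 8.55, 8.54 and 8.58 in the controls. No hairpin library reached the controls. In the mean of both hairpins the log2 fold change was -0.24 ± 0.07 (SE, adjusted p = 0.0514, or 0.0171 with the replicate block, limma). Dhx16, Dhx35, Ddx39b, Ddx41 and Ddx42 were called in no comparison of all 9 libraries, with log2 fold changes in that mean between -0.20 and 0.02. For Dhx35 the value was -0.33 with shRNA2 and 0.05 with shRNA1, and the difference between the lines did not pass (adjusted p = 0.424, limma).

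The 8 cytoplasmic helicases fell into sets of 4 by the sign of their fold change. Ddx3x, Ddx6, Dhx29 and Ddx19a had log2 fold changes between -0.52 and -0.35 in the mean of both hairpins, and 3 of them were called lower. Dhx36, Ddx19b, Dhx57 and Dhx34 lay between 0.01 and 0.12, and none was called. The class median was -0.17. Of all genes 7.89% were lower and 9.69% higher in that mean. Without either control replicate 1 or control replicate 2 none of the 8 was called, where 2.22% and 2.2% of all genes were lower.

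Ddx19a, which works at the nuclear pore in mRNA export, was the cytoplasmic member lower with both hairpins. Its log2 values were 5.31, 5.60 and 5.68 with shRNA1 and 5.55, 5.54 and 5.51 with shRNA2, against 5.89, 5.89 and 5.87 in the controls. The controls were nearly equal and above all hairpin libraries. On the log2 scale the change was -0.36 ± 0.10 with shRNA1 and -0.35 ± 0.10 with shRNA2 (SE, adjusted p = 0.0414 and 0.0427, limma). Reads of Ddx19a and Ddx19b are hard to assign, since their coding sequences are 93.6% identical, so both values are uncertain. In the mean of both hairpins Ddx19a lost its call without any 1 of the control libraries.

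Ddx6, a repressor of translation and activator of decapping, had log2 values of 8.15, 8.66 and 8.55 with shRNA1 and 8.46, 8.48 and 8.72 with shRNA2, against 8.79, 8.997 and 8.90 in the controls. All hairpin libraries were lower, and replicate 0 of shRNA1 was the lowest. Dhx29, which helps initiation complexes through structured leaders, had 5.67, 6.14 and 5.93 with shRNA1 and 5.94, 6.03 and 6.10 with shRNA2, against 6.29, 6.53 and 6.26 in the controls. Here too the groups did not overlap. Both had a log2 fold change of -0.39 in the mean of both hairpins (SE 0.12 for Ddx6 and 0.11 for Dhx29, adjusted p = 0.0461 and 0.0353, limma). Each call held under 7 of 14 alternatives. Both calls were lost without any 1 of the control libraries, replicate 2 of shRNA1, or replicate 0 or 1 of shRNA2, that of Ddx6 also with no intensity trend, and that of Dhx29 also without replicate 2 of shRNA2.

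Ddx3x and Dhx9 are named because their values were seen to be large without a call. Ddx3x, an X-linked factor of translation initiation, had log2 values of 8.65, 9.47 and 9.48 with shRNA1 and 9.03, 9.28 and 9.32 with shRNA2, against 9.54, 9.83 and 9.80 in the controls. The highest hairpin libraries came close to control replicate 0, and replicate 0 was low in each group. Its log2 fold change in the mean of both hairpins was -0.52 ± 0.18 (SE, adjusted p = 0.0761, or 0.00663 with the replicate block, limma), and it also passed without replicate 0 of shRNA1.

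Dhx9, a nuclear helicase of transcription and RNA structure, had log2 values of 7.79, 8.57 and 8.68 with shRNA1 and 8.24, 8.55 and 8.70 with shRNA2, against 8.77, 9.22 and 9.13 in the controls. As with Ddx3x, the groups did not overlap but replicate 0 spread each of them. The log2 fold change was -0.62 ± 0.20 (SE, adjusted p = 0.061, or 0.00209 with the replicate block, limma), the lowest value of the 47. It also passed without replicate 0 or without replicate 2 of shRNA1.

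Among the other nuclear helicases 2 of 10 were lower and 1 was higher, and these 3 held their call under 14 of 14 alternatives. In the same mean of both hairpins 7.89% of all genes were lower and 9.69% higher. Ddx39, an mRNA export helicase, had log2 values of 6.21, 6.28 and 6.38 with shRNA1 and 6.27, 6.24 and 6.18 with shRNA2, against 6.81, 6.78 and 6.80 in the controls. The gap between the groups was wider than the spread within any of them. The log2 fold change was -0.51 ± 0.07 with shRNA1 and -0.57 ± 0.07 with shRNA2 (SE, adjusted p = 0.00416 and 0.00272, limma), which left 69.0% of control in the mean of both hairpins. The gene span of Ddx39, introns included, shares 3642 bases with that of Adgre5 on the opposite strand. What part of the Ddx39 value comes from there was not tested.

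Ddx20, the Gemin component of the SMN complex that assembles spliceosomal particles, had log2 values of 5.36, 5.36 and 5.35 with shRNA1 and 5.36, 5.36 and 5.40 with shRNA2, against 5.66, 5.83 and 5.74 in the controls. The 6 hairpin libraries were almost the same, and all were below the controls. With shRNA1 the log2 fold change was -0.39 ± 0.07 and with shRNA2 it was -0.37 ± 0.07 (SE, adjusted p = 0.0113 and 0.0127, limma).

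Ddx59, a gene mutated in a human orofaciodigital syndrome, went the other way. Library by library, the log2 values were 4.50, 4.42 and 4.50 with shRNA1 and 4.65, 4.72 and 4.69 with shRNA2, against 4.13, 4.11 and 4.16 in the controls. All 6 hairpin libraries were above the controls, and the shRNA2 libraries were above the shRNA1 libraries. Its increase on the log2 scale was 0.34 ± 0.08 with shRNA1 and 0.55 ± 0.08 with shRNA2 (SE, adjusted p = 0.0209 and 0.0039, limma). The difference between the lines, shRNA2 minus shRNA1, was 0.21 (95% interval 0.04 to 0.38) and did not pass (adjusted p = 0.369, limma).

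The rest of this class, besides Dhx9, was called in no comparison of all 9 libraries: Ddx1, Ddx5, Ddx11, Ddx17, Dhx32 and Dhx40 had log2 fold changes between -0.15 and 0.04 in the mean of both hairpins. Ddx5 and Ddx17, paralogs that serve as cofactors of transcription and splicing, had 95% intervals of -0.21 to 0.11 and -0.14 to 0.22.

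**Figure D3:**
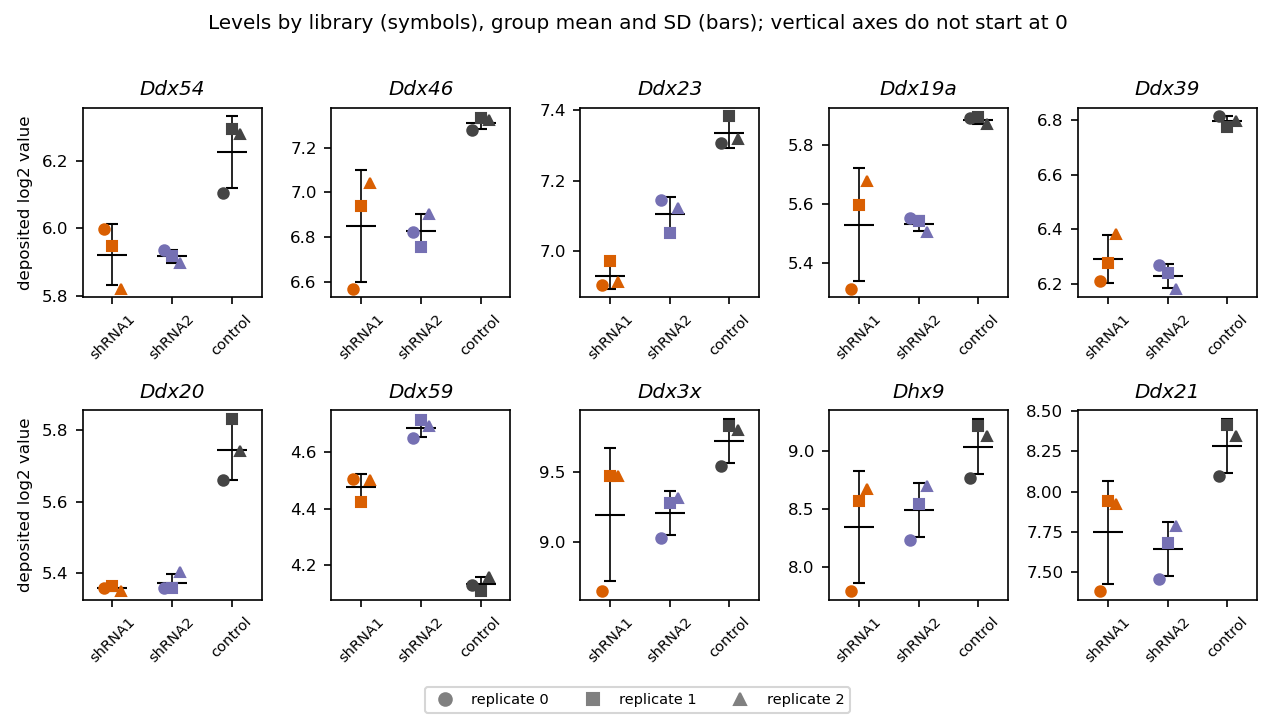
Each panel shows the deposited log2 values of 1 gene in the 3 groups, with a symbol per library (circle, square and triangle for replicates 0, 1 and 2) and bars for the mean and SD of 3 libraries. Ddx54, Ddx46, Ddx23, Ddx19a, Ddx39 and Ddx20 were lower with both hairpins and Ddx59 was higher; in Ddx3x, Dhx9 and Ddx21 the circle is the lowest symbol of each group.

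Neither mitochondrial member was called. Dhx30, which acts in mitochondrial ribosome assembly, had log2 values of 6.65, 6.83 and 6.73 with shRNA1 and 6.79, 6.82 and 6.73 with shRNA2, against 6.95, 6.90 and 6.86 in the controls. All hairpin libraries were just below the controls, and the log2 fold change in the mean of both hairpins was -0.14 ± 0.06 (SE, adjusted p = 0.136, limma). Ddx28, with a similar role, had 3.53, 3.39 and 3.27 with shRNA1 and 3.22, 3.37 and 3.17 with shRNA2, against 3.46, 3.30 and 3.39 in the controls. Its groups overlapped, and its log2 fold change was -0.06 ± 0.10 (SE, adjusted p = 0.726, limma). Ddx28 lies within Dus2 on the opposite strand over 2262 bases.

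Ddx25, a helicase known from spermatids, was listed at a low level. The libraries held log2 values of 2.27, 1.96 and 1.82 with shRNA1 and 1.58, 1.70 and 1.80 with shRNA2, against 2.25, 2.37 and 2.46 in the controls. The shRNA2 libraries were below the controls, and the shRNA1 libraries overlapped them through replicate 0. The log2 fold change was -0.67 ± 0.17 with shRNA2 and -0.34 ± 0.17 with shRNA1 (SE, adjusted p = 0.0357 and 0.228, limma). In the mean of both hairpins it was -0.50 (adjusted p = 0.0454, limma), a call that held under 5 of 13 alternatives and was lost without any 1 library other than replicate 0 of shRNA1.

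Between the Decr2 lines no helicase was called in the comparison of shRNA2 with shRNA1 (limma), where 0.455% of all genes were called in either direction. At an unadjusted p under 0.05 there were 5 helicases, Dhx37, Dhx35, Ddx56, Ddx23 and Ddx59, a share near the 10% of all genes at that level. Intervals of the difference were wide for several others, for example -0.37 to 0.66 on the log2 scale for Dhx9 and -0.45 to 0.48 for Ddx3x. Without the libraries numbered 0, Dhx37 (log2 difference -0.82, adjusted p = 0.0184) and Ddx3x (-0.17, adjusted p = 0.0448, limma) were called lower with shRNA2 than with shRNA1, where 4.95% of all genes were. That count of 2 among 47 helicases is near the share of all genes.

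The shifts of the nucleolar, splicing and cytoplasmic classes can be set side by side library by library, as the median over members of the log2 value minus the mean of the controls. For the nucleolar class this was -0.25, -0.15 and -0.14 with shRNA1 and -0.23, -0.24 and -0.23 with shRNA2, against -0.07, 0.04 and 0.01 in the controls. For the splicing class it was -0.31, -0.15 and -0.19 with shRNA1 and -0.19, -0.26 and -0.20 with shRNA2, against -0.04, 0.03 and 0.01 in the controls. In both classes every hairpin library was below every control. For the cytoplasmic class it was -0.47, -0.07 and -0.09 with shRNA1 and -0.22, -0.13 and -0.08 with shRNA2, against -0.08, 0.08 and -0.004 in the controls. There replicate 0 of shRNA1 was far below the rest, and replicate 1 of shRNA1 overlapped the lowest control. Over all genes the same median lay between -0.002 and 0.017 in the 9 libraries. No difference between the classes was tested.

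Pairs of close paralogs were set against each other within each library. The difference of log2 values between Ddx39 and Ddx39b was -2.15, -1.82 and -1.59 with shRNA1 and -2.03, -1.71 and -1.84 with shRNA2, against -1.45, -1.23 and -1.25 in the controls. For Ddx21 minus Ddx50 it was 0.99, 1.30 and 1.38 with shRNA1 and 0.88, 0.96 and 1.10 with shRNA2, against 1.39, 1.76 and 1.64 in the controls. For Ddx19a minus Ddx19b it was 0.22, -0.13 and -0.06 with shRNA1 and 0.20, -0.11 and -0.16 with shRNA2, against 0.48, 0.38 and 0.42 in the controls. In these 3 pairs all 6 hairpin libraries were below all controls, for Ddx21 minus Ddx50 by a very small margin, with mean shifts of -0.54, -0.49 and -0.43. For Ddx5 minus Ddx17 the groups overlapped and the mean shift was -0.09. Coding sequences were 81.2% identical for Ddx39 and Ddx39b, 68.2% for Ddx21 and Ddx50, 93.6% for Ddx19a and Ddx19b, and 70.1% for Ddx5 and Ddx17. The pairs were chosen with the values in view, so the shifts are a description without a test.

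**Figure D4:**
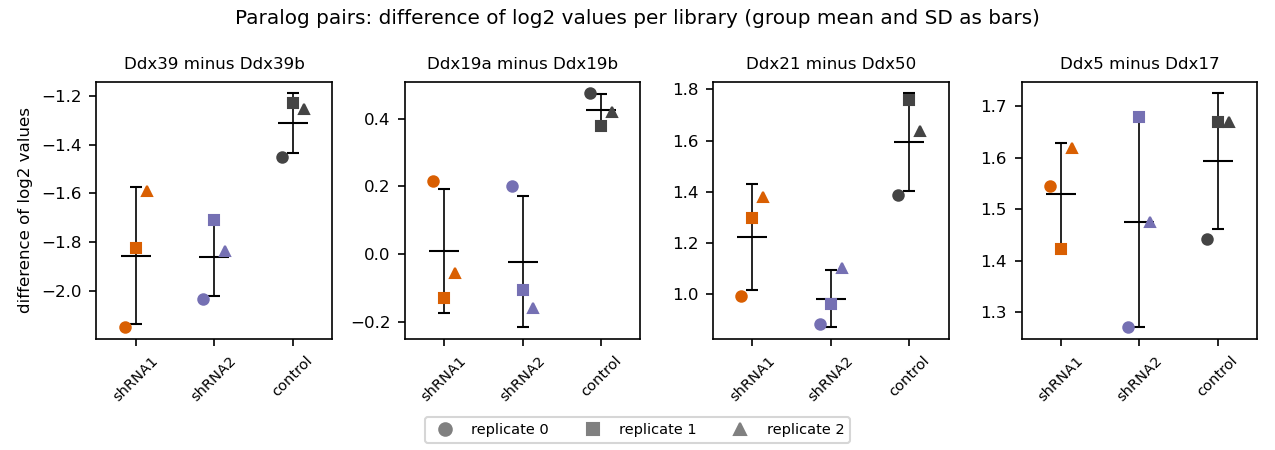
The vertical axis is the difference between the log2 values of a pair of paralogs in the same library, shown for shRNA1, shRNA2 and control, with bars for the mean and SD of 3 libraries. For Ddx39 minus Ddx39b, Ddx19a minus Ddx19b and Ddx21 minus Ddx50 the control libraries are above all 6 hairpin libraries, and for Ddx5 minus Ddx17 the groups overlap.

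The proteins that work with these helicases are given from lists of named genes. Of all genes 7.89% were lower and 9.69% higher in the mean of both hairpins. The lists were chosen with earlier results of these data known, so their shares are a description and not a test. Of 52 factors of ribosomal RNA processing and transcription 34 (65.4%) were lower in that mean and none was higher, with a median log2 fold change of -0.37. They included Nolc1 (-0.72 ± 0.06), Polr1b (-0.69 ± 0.06), Nop2 (-0.59 ± 0.05) and Utp4 (-0.56 ± 0.07), given as log2 fold changes with SE. These are a nucleolar phosphoprotein, a subunit of RNA polymerase I, an rRNA methyltransferase and a component of the small subunit processome. Of 40 spliceosome proteins 16 (40.0%) were lower and none was higher, with a median of -0.23. The ones with the smallest adjusted p were Sf3b3 (-0.57 ± 0.09), Sf3b4 (-0.39 ± 0.06), Prpf4 (-0.37 ± 0.06) and Prpf19 (-0.36 ± 0.06).

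Of 37 proteins of mRNA translation, export and decay 3 (8.11%) were lower and 1 was higher, with a median log2 fold change of -0.10. That share is near the one over all genes. The initiation scaffold Eif4g1 (-0.38 ± 0.08) and the pore proteins Gle1 (-0.24 ± 0.07), which in yeast activates the Ddx19 relative Dbp5, and Nup214 (-0.56 ± 0.17) were lower, and the decapping cofactor Dcp1b (0.34 ± 0.09) was higher. Of 16 RNA helicases with other names 2 (12.5%) were lower and 2 were higher, with a median of -0.16. Snrnp200, which unwinds spliceosomal RNAs (-0.40 ± 0.12), and Eif4a3 of the exon junction complex (-0.28 ± 0.05) were lower, and Mov10 (0.48 ± 0.10) and the initiation factor Eif4a2 (0.40 ± 0.12) were higher. Of 21 G-patch proteins, a group that holds the activators of several DEAH helicases, 4 (19.0%) were lower and none was higher, with a median of 0.05. These were Gpatch4 (-0.49 ± 0.08), Nkrf (-0.47 ± 0.11), Cherp (-0.46 ± 0.09) and Tfip11 (-0.26 ± 0.07).

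The same lists were counted again under settings that moved the helicase counts. With the replicate block 14.1% of all genes were lower and 16.2% higher. Lower were 40 of the 52 processing factors, 22 of the 40 spliceosome proteins and 5 of the 37 translation and decay proteins (13.5%). So were 5 of the 16 other helicases and 4 of the 21 G-patch proteins. Higher were 1 spliceosome protein, 1 translation and decay protein and 2 other helicases. Without the libraries numbered 0, where 20.5% of all genes were lower, 44 of the 52 processing factors, 26 of the 40 spliceosome proteins, 6 of the 37 translation and decay proteins (16.2%), 6 of the 16 other helicases and 6 of the 21 G-patch proteins were lower. In that setting 2 spliceosome proteins, 1 translation and decay protein, 2 other helicases and 3 G-patch proteins were higher. Of all genes 20.9% were higher there. Without either control replicate 1 or control replicate 2, 16 of the 52 processing factors and 6 of the 40 spliceosome proteins were lower. None of the 37 translation and decay proteins and none of the 16 other helicases were lower. Of the 21 G-patch proteins 2 were lower without control replicate 1 and 1 without control replicate 2. Of all genes 2.22% and 2.2% were lower in these settings.

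**Figure D5:**
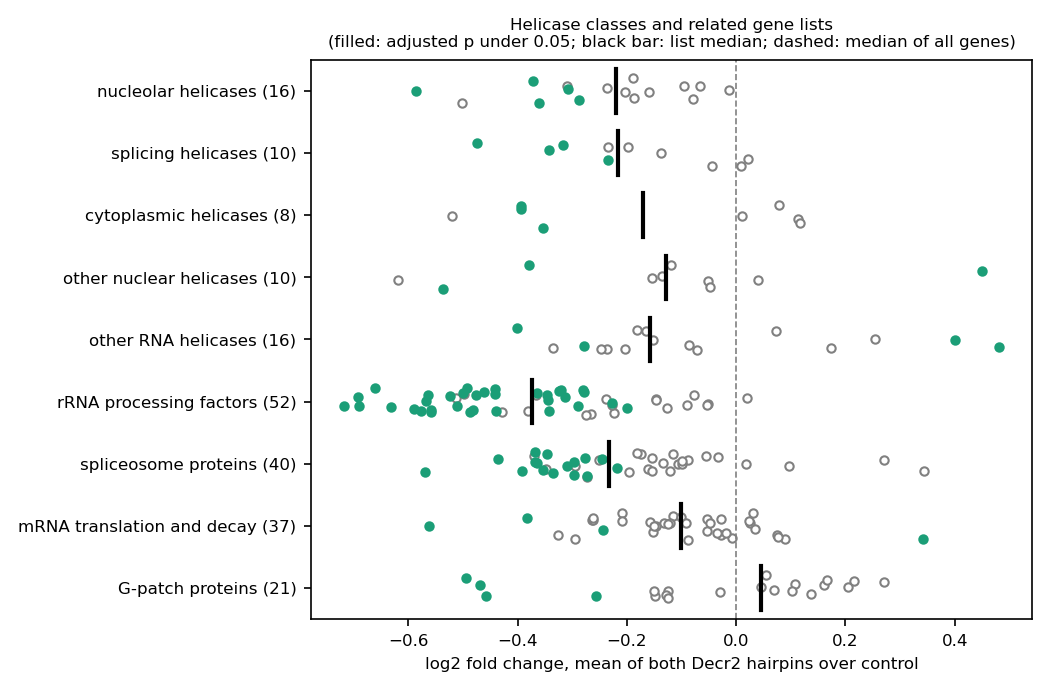
Each point is 1 gene, placed by its log2 fold change in the mean of both Decr2 hairpins over control, with filled points for an adjusted p under 0.05, a black bar for the list median and a dashed line for the median of all genes. The number of genes is in brackets, and the mitochondrial and germline members are left out. The rRNA processing factors have the lowest median (-0.37), and the cytoplasmic helicases split into a lower set and a set near 0.

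A search for the E-box CACGTG, a palindrome bound by Myc among other factors, was made in RefSeq promoters of GRCm38.p6, from 250 bases before to 50 after the gene start. It was found in 6 of 42 helicase promoters (14.3%), against 1049 of 8596 promoters of all genes (12.2%). The matches were Ddx5, Ddx25, Ddx42, Dhx33, Dhx35 and Dhx40, of which Ddx25 and Dhx33 were lower in the mean of both hairpins. A match is a description of the letters and not a bound site.

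The authors' deposited table has its own adjusted p-values for each hairpin. At 0.05 it held 8 helicases lower and 1 higher with shRNA1, and 12 lower and 1 higher with shRNA2, and the 9 and 13 genes were the same as those called here.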

How the data were processed

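The deposited table of the authors held 1 log2 value per library for 10762 genes, and, per the file headers, the authors' own fold changes, p-values and t scores of both hairpin comparisons. The submitters' processing notes list limma, kallisto and FastQC with no version. Build, annotation, strand setting and low-value filter were not given in the sources used here. How these deposited log2 values were scaled is not given; library medians were 5.35 to 5.38, and raised to the power of 2 the values summed to 969465 to 1045849 per library. Depth is unknown, and precision rests on the spread between libraries. Deposited t scores were not used by themselves, and deposited p-values of the authors were used only for their own calls.

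Column names mark the control and the replicate number but leave the Decr2 hairpin unnamed. The authors' headed fold changes matched the columns assigned here within 0.05 in 99.95% of genes for shRNA1 and 99.7% for shRNA2, and the crossed columns in 26.6% and 26.3%; if those headings were exchanged, the hairpin names here would be too.

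Tests were made in R 4.3.3 with limma 3.58.1, fitted to all 9 libraries with 1 mean for each group and an intensity trend, and with contrasts of each hairpin, and of their mean, against control and of shRNA2 against shRNA1. Benjamini-Hochberg adjustment ran over the whole table. The fit was run on simulated data with independent noise in each library. Such data cannot show how it behaves where same-numbered libraries deviate together. Same-numbered libraries deviated together from their group means (r between 0.126 and 0.644 across genes in all 9 pairs). The number was therefore taken as a block in an alternative fit. The main fit and its p-values did not pair the libraries by number. Differently numbered pairs ranged from -0.629 to 0.531, and every pair of a library numbered 0 with one numbered otherwise was negative. The 3 deviations of a group sum to 0. These negative signs thus follow in part from the positive values among libraries numbered 0, and are not separate support for pairing. Replicate 2 of shRNA2 had r of 0.302 with control replicate 1 and 0.197 with control replicate 2. The digits 1 and 2 are therefore not clearly set apart from each other. Per-library values are given for helicases called with both hairpins, for nucleolar, splicing and cytoplasmic helicases called in the mean of both, and for up to 3 members of smaller classes. Ddx3x, Dhx9, Dhx37 and Dhx15 are shown outside this rule. Partner lists show up to 4 members by p. Members, classes and lists were chosen with earlier results of these data known. Alternatives were the replicate block, the lowest 25% of genes removed, a fit of the compared groups alone, no intensity trend, median centring, each library left out, and the 3 libraries numbered 0 left out. Motif II was located in coding sequences rebuilt from GENCODE M21, and paralogs were aligned with Biopython 1.88. All 47 gene identifiers matched their symbols in the reference table. Overlaps between genes were read from whole gene spans, introns included. On the same strand they included 3105 bases of Ddx24 with Gm47260, 2766 of Ddx6 with E030022I16Rik and 1386 of Dhx15 with Gm43178.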

Additional observations from a re-analysis of the deposited data

How the results depend on the processing

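The 21 helicases followed under every alternative kept their direction in the mean of both hairpins. Among the uncalled others, leaving out the libraries numbered 0 turned Ddx41 to -0.06 against 0.02 with all 9, Ddx42 to 0.03 against -0.04 and Ddx39b to -0.02 against 0.01. Beside the helicase counts, the share of all genes called in either direction is given in brackets. Against 9 helicases called with shRNA1 (12.4%), the replicate block gave 18 (24.6%), the fit of the compared groups alone 3 (6.27%) and leaving out the libraries numbered 0 gave 22 (34.5%); leaving out 1 library gave 2 to 8 (3.05% to 14.7%), lowest without control replicate 1 or 2. Against 13 with shRNA2 (12.9%), the block gave 21 (24.0%) and leaving out the libraries numbered 0 gave 27 (37.3%). The fit of the compared groups alone, which lowered the count with shRNA1, raised it with shRNA2 to 18 lower and 1 higher (16.8%). Leaving out 1 library gave 2 to 21 with shRNA2 (3.77% to 22.8%). This was lowest without control replicate 1 or 2 or shRNA2 replicate 1 and highest without shRNA1 replicate 0. Against 16 in the mean of both hairpins (17.6%), leaving out the libraries numbered 0 gave 27 (41.4%) and the block 24 (30.3%); leaving out 1 library gave 4 to 20 (5.72% to 24.5%), lowest without control replicate 1 or 2. Against 7 called with both hairpins (7.55%), the block gave 17 (15.4%), the compared groups alone 3 (4.46%), no intensity trend 4 (6.79%) and leaving out the libraries numbered 0 gave 21 (23.7%); leaving out 1 library gave 1 to 8 (1.75% to 9.87%), lowest without control replicate 1 or 2. Between the lines, where none was called (0.455%), leaving out the libraries numbered 0 gave 2 (8.87%) and leaving out 1 library gave 0 each time. A fit without a library also has fewer samples, and what moved these counts up or down was not tested. The block changed no other call than those named in the results. Ddx39, Ddx20, Ddx23 and Ddx59 kept their call in the mean of both hairpins under all 14 alternatives. Over the named genes 247 comparisons with an alternative kept direction and side of the threshold, 9 gained a call and 49 lost one. Unknown depth limits what can be said of low genes such as Ddx25.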
